A study of Bos grunniens with 18 samples.

Results

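Chemokines are small secreted proteins that steer white blood cells, and each acts through receptors of the G protein-coupled type on the surface of its target cells. The genes described here are 8 chemokines and receptors of lymphocytes and monocytes: the ligands CCL5, CCL4, CXCL8 and CXCL10, and the receptors CXCR3, CCR2, CCR6 and CX3CR1. They were chosen by name in the deposited gene table of yak (Bos grunniens) whole blood, in which 6 of the 8 had a row, of 20607 rows in all. CCL5 and CCL4 had no row under those names.

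The blood came from adult female yaks 4 to 8 years of age at 3 reproductive stages, with 6 libraries each: Y-A is blood taken in anestrus, Y-E in estrus and Y-P in pregnancy. Estrus had been synchronised with a progesterone pessary, cloprostenol (an analogue of prostaglandin F2-alpha) and GnRH, and the cows were then inseminated at a fixed time. Blood was taken into EDTA tubes, mixed with TRIzol LS and sequenced as poly(A) RNA. The study followed 6 cows through the stages, and each stage has a library numbered 1 to 6, although the sources used here do not state that a number marks a cow. Stage cannot be told apart from the date or season of sampling, nor, for Y-E and Y-P, from the hormone programme.

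In blood, CXCR3 is known mainly from activated helper and cytotoxic T cells and NK cells, and CXCL10 is one of its ligands, induced by interferon. CCR2 brings monocytes out of the bone marrow and into tissue, CX3CR1 marks patrolling monocytes and cytotoxic lymphocytes, and CCR6 is carried by B cells and by T cells of the Th17 kind. CXCL8 (interleukin 8) attracts neutrophils and is rapidly induced in activated myeloid cells, while CCL5 (RANTES) and CCL4 are released by activated T and NK cells.

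By Ensembl identifier and deposited coordinates of the Bos grunniens v101 build, CXCL8 was ENSBGRG00000020347 (chr6:32250087-32254963, minus strand) and CXCL10 was ENSBGRG00000015786 (chr6:29952787-29955539, plus strand). CXCL10 overlaps ART3, which is on the opposite strand. The sources used here do not say whether counting used the strand, so reads of ART3 may be counted in CXCL10. CXCR3 was ENSBGRG00000025320 (chrX:85918648-85921861, plus), CCR2 was ENSBGRG00000010345 (chr22:8938746-8941891, plus), CX3CR1 was ENSBGRG00000007861 (chr22:53953976-53955052, plus) and CCR6 was ENSBGRG00000012482 (chr10:97842134-97880796, minus). A further gene without a name, ENSBGRG00000023713 (chr19:55271356-55281813, minus), is described in the same table as C-C motif chemokine ligand 5. It is not among the genes chosen by name, was picked out by its description, and is given beside them as the CCL5-described gene.

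The libraries held 30247267 to 48401076 counts, and 14508 genes had enough counts to be tested, among them all 6 named genes and the CCL5-described gene. Between 3.10% and 16.7% of the counts of a Y-A library fell on hemoglobin genes, against 0.0899% to 8.36% in Y-E and 0.0272% to 0.376% in Y-P. The 8.36% belonged to Y-E replicate 6, which stood apart from the other Y-E libraries in this respect.

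On the FPKM scale, which accounts for exon length and so allows genes to be compared, the receptors CX3CR1 and CCR2 led. The median over the 18 libraries was 65.7 FPKM for CX3CR1 (range 42.1 to 106) and 42.4 FPKM for CCR2 (range 30.4 to 85.2), and CX3CR1 was above CCR2 in 15 of the 18 libraries. The CCL5-described gene followed at 10.2 FPKM (range 4.89 to 43.1), below CCR2 in 17 of the 18. CXCR3 at 9.19 (range 5.31 to 21.5) and CCR6 at 7.10 FPKM (range 4.24 to 9.63) came next, and the ligands CXCL8 at 4.79 (range 1.90 to 45.0) and CXCL10 at 3.46 FPKM (range 1.40 to 6.18) were lowest. The neighbours in the lower part of this order overlapped: the CCL5-described gene was above CXCR3 in 13 libraries, CXCR3 above CCR6 in 14, CCR6 above CXCL8 in 10 and CXCL8 above CXCL10 in 14 of the 18. In scaled read counts (CPM, described below) rather than FPKM, the receptors were also the steadier of the named genes. Their highest library was 2.29 (CCR6) to 3.61 (CXCR3) times the lowest, against 4.16 times for CXCL10 and 17.8 times for CXCL8.

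Below, levels are given as CPM, read counts brought to 1 common library size with TMM scaling, with the mean ± SD of the 6 libraries of a stage. Differences are log2 fold changes from edgeR's quasi-likelihood test with their SE, and each adjusted p is a Benjamini-Hochberg value over all 14508 genes.

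**Figure D1:**
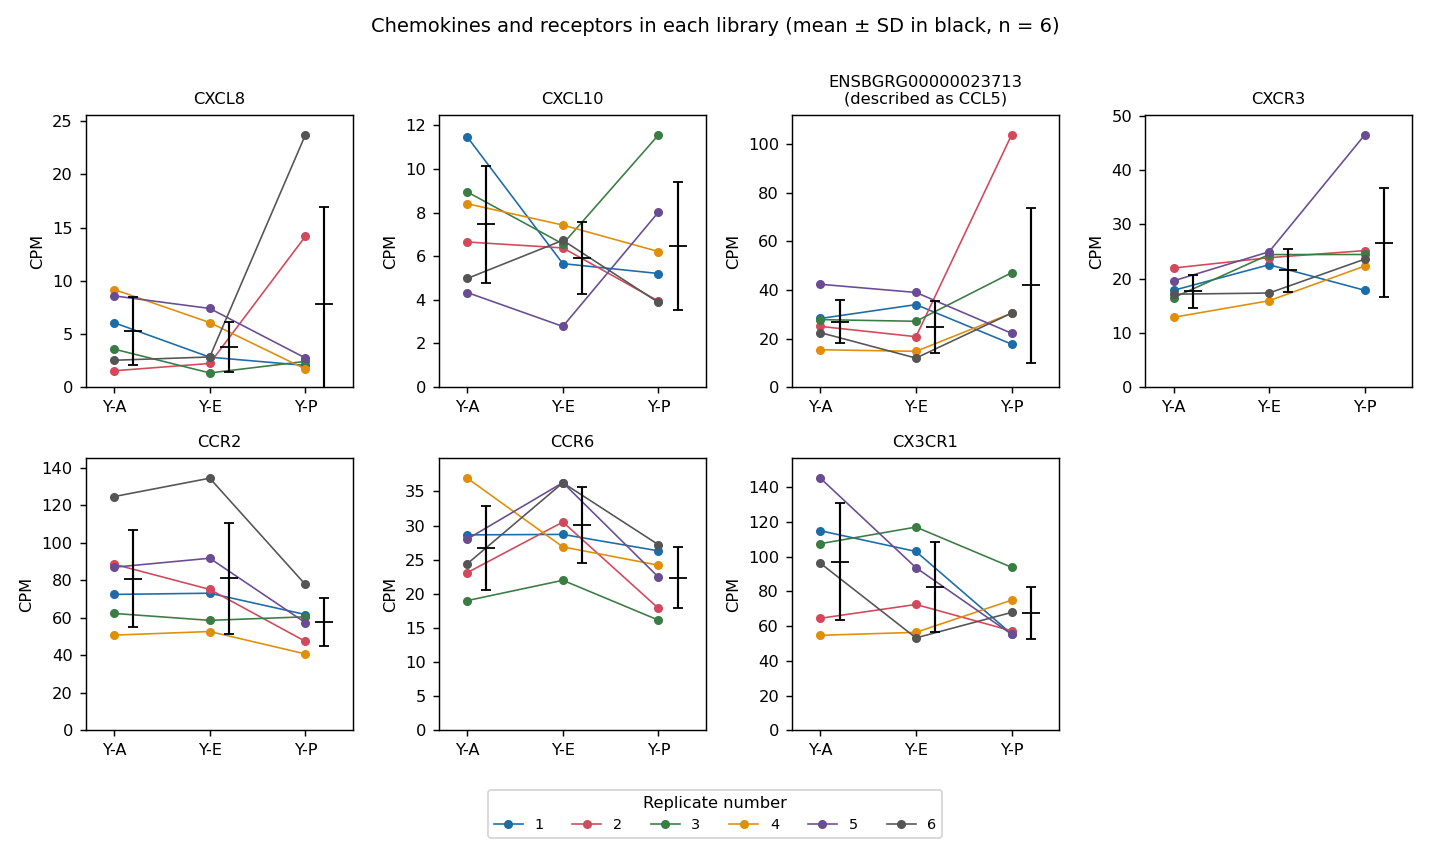
Each panel plots the CPM (vertical axis, linear from 0) of 1 gene in the 18 libraries by stage (horizontal axis), with lines joining libraries of the same number and black bars for the mean ± SD of 6 libraries; the lower bar of CXCL8 in Y-P goes below 0 and is cut there. CCR2 keeps much the same order of numbers in Y-A and Y-E, CXCR3 has 1 Y-P library at 46.5 CPM, and CXCL8 has Y-P libraries at 14.2 and 23.7 CPM.

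CXCL8 varied widely within each stage. In Y-A its libraries ranged from 1.54 to 9.17 CPM (median 4.81), in Y-E from 1.33 to 7.39 CPM (median 2.82), and in Y-P from 1.70 to 23.7 CPM (median 2.58). In Y-P replicates 2 and 6 were at 14.2 and 23.7 CPM and the other 4 libraries between 1.70 and 2.74 CPM, so the high mean of Y-P (7.79 ± 9.15 CPM, n = 6) came from 2 libraries and its median was the lowest of the 3 stages. Its log2 fold change was 0.57 for Y-P vs. Y-A (SE 0.64, edgeR adjusted p = 0.647) and 1.04 for Y-P vs. Y-E (SE 0.65, adjusted p = 0.309). Without Y-P replicate 6 these values were −0.18 and 0.29. The SD of its log2 CPM within a stage was 1.21, and 9.62% of all tested genes had one as large, against a median SD of 0.36.

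CXCL10, the interferon-induced ligand of CXCR3, ranged from 4.33 to 11.5 CPM in Y-A (median 7.53), from 2.78 to 7.42 CPM in Y-E (median 6.47) and from 3.88 to 11.6 CPM in Y-P (median 5.71). All 3 ranges overlapped. With edgeR the difference on the log2 scale was −0.33 for Y-E vs. Y-A (SE 0.30), −0.21 for Y-P vs. Y-A (SE 0.30) and 0.13 for Y-P vs. Y-E (SE 0.30), and the adjusted p in the comparisons with Y-P was at least 0.735. The 95% interval of the fold in Y-P vs. Y-A ran from 0.563 to 1.33.

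The CCL5-described gene was at 15.4 to 42.3 CPM in Y-A (median 26.4), 11.96 to 39.0 CPM in Y-E (median 23.9) and 17.7 to 104 CPM in Y-P (median 30.4). The value of 104 CPM belonged to Y-P replicate 2, and the next highest Y-P library was at 47.1 CPM. Its log2 fold change of 0.64 for Y-P vs. Y-A (SE 0.38, edgeR adjusted p = 0.329) became 0.14 without that library, and the 0.77 for Y-P vs. Y-E (SE 0.38, adjusted p = 0.185) became 0.27. The same library had the highest summed level of NK and cytotoxic markers among the Y-P libraries, 443 CPM against 242 to 403 CPM in the other 5, and its part in the result was not tested.

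CXCR3 was the only one of the 4 named receptors whose mean was higher in Y-P than in Y-A. In Y-A, replicates 1 to 6 were at 17.8, 22.0, 16.5, 12.9, 19.6 and 17.1 CPM, in Y-E at 22.6, 23.9, 24.4, 15.9, 24.96 and 17.3 CPM, and in Y-P at 17.9, 25.2, 24.5, 22.3, 46.5 and 23.6 CPM. The ranges of the stages overlapped, but all 6 Y-P libraries were above the Y-A library of the same number, if only by 17.9 to 17.8 CPM in replicate 1, and so were all 6 Y-E libraries. The mean was 17.7 ± 3.06 CPM in Y-A, 21.5 ± 3.89 CPM in Y-E and 26.7 ± 10.1 CPM in Y-P (n = 6 each). The log2 fold change of Y-P vs. Y-A was 0.59 (SE 0.20, a fold of 1.51, 95% interval 1.14 to 2.01), with an edgeR adjusted p of 0.0753. With the replicate number as a block in the fit it was 0.56 with an adjusted p of 0.0365. Y-P replicate 5 carried a large share of this: without it the value was 0.36 (adjusted p = 0.187), and with the block and without it 0.42 (adjusted p = 0.0847). For Y-P vs. Y-E the log2 fold change was 0.31 (SE 0.20, adjusted p = 0.318), or 0.077 without Y-P replicate 5 (adjusted p = 0.807), and that of Y-E vs. Y-A 0.29 (SE 0.20, adjusted p = 0.962).

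CCR2, the monocyte receptor, was lower in pregnancy in all 6 same-numbered pairs with Y-A and in 5 of 6 with Y-E. In Y-A, replicates 1 to 6 were at 72.4, 88.5, 62.3, 50.7, 86.9 and 125 CPM, in Y-E at 73.0, 75.0, 58.6, 52.6, 91.7 and 134 CPM, and in Y-P at 61.7, 47.4, 60.5, 40.7, 57.4 and 77.7 CPM. Number 6 was the highest and number 4 the lowest in each stage, and the ranges of the stages overlapped. The mean was 80.9 ± 25.8 CPM in Y-A, 80.9 ± 29.5 CPM in Y-E and 57.6 ± 12.8 CPM in Y-P (n = 6 each). By stage alone the log2 fold change was −0.49 for Y-P vs. Y-A (SE 0.23, edgeR adjusted p = 0.209) and −0.49 for Y-P vs. Y-E (SE 0.23, adjusted p = 0.160), the latter −0.29 without Y-E replicate 6 (SE 0.21, adjusted p = 0.401). With the replicate block the SE was reduced to 0.11, the values were −0.45 (adjusted p = 0.0273) and −0.44 (adjusted p = 0.0167), and both passed. Y-E vs. Y-A was 0.00 (SE 0.23), with a 95% interval of the fold from 0.718 to 1.39.

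Leaving out libraries moved these calls. With the block and without Y-E replicate 6, CCR2 stayed past the threshold in both comparisons (adjusted p = 0.0334 and 0.0429), where 7.20% and 15.2% of all genes did. With the block and without Y-P replicate 5 it stayed so in Y-P vs. Y-E (adjusted p = 0.0453) and not in Y-P vs. Y-A (−0.42, adjusted p = 0.0673), with 13.1% and 4.13% of all genes past it. On the log2(FPKM + 1) scale with limma, the median of all genes was itself shifted by 0.15 in Y-P relative to Y-A and by 0.14 relative to Y-E. The CCR2 differences were smaller there (−0.25 and −0.26), and no setting on that scale called the gene. The limma fits were by stage alone. They cannot show whether the calls made with the block hold on that scale.

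CCR6, carried by B cells and Th17 cells, was highest in estrus and lowest in pregnancy by its mean. In Y-A, replicates 1 to 6 were at 28.6, 23.1, 19.0, 36.9, 28.0 and 24.4 CPM, in Y-E at 28.7, 30.5, 22.0, 26.9, 36.3 and 36.3 CPM, and in Y-P at 26.3, 17.9, 16.1, 24.2, 22.4 and 27.2 CPM. Each Y-P library was below the Y-E library of its number, and the ranges overlapped. Between Y-P and Y-E the log2 fold change was −0.43 (SE 0.17, edgeR adjusted p = 0.0949), and −0.44 with the block (adjusted p = 0.0295), but this call was lost with the block and without Y-E replicate 6 (adjusted p = 0.0712) or without Y-P replicate 5 (adjusted p = 0.0715). Y-P vs. Y-A was −0.26 (SE 0.17, adjusted p = 0.394) and Y-E vs. Y-A 0.17 (SE 0.17). By library size alone, without TMM, CCR6 was at −0.28 for Y-P vs. Y-E and −0.08 for Y-P vs. Y-A. With limma on log2(FPKM + 1) these values were −0.21 and −0.04.

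CX3CR1, the receptor of patrolling monocytes and cytotoxic cells, had the highest levels of the set and a wide spread. Its range was 54.7 to 145 CPM in Y-A (median 102), 53.2 to 117 CPM in Y-E (median 83.0) and 55.3 to 93.9 CPM in Y-P (median 62.6). The lowest library was almost equal in the 3 stages, and the stages differed at the upper end. Its log2 fold change was −0.53 for Y-P vs. Y-A (SE 0.23, edgeR adjusted p = 0.185, lower in 5 of 6 same-numbered pairs), −0.29 for Y-P vs. Y-E (adjusted p = 0.445) and −0.23 for Y-E vs. Y-A (SE 0.23). It passed in none of the 3 comparisons under any of the 29 settings run. By library size alone, without TMM, its Y-P vs. Y-A value was −0.35, and with limma on log2(FPKM + 1) it was −0.27.

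Counted together, the edgeR test by stage alone called 0 of the 6 named genes in each comparison, at an adjusted p under 0.05. Of all tested genes the same test called 0.0207% in Y-E vs. Y-A, 5.83% in Y-P vs. Y-A and 14.4% in Y-P vs. Y-E. At an unadjusted p under 0.05 the counts were 0, 3 (CXCR3, CCR2 and CX3CR1) and 2 (CCR2 and CCR6) of 6, where 6.20%, 22.7% and 29.3% of all genes reached it. By library size alone, without TMM, and by limma on log2(FPKM + 1), these unadjusted counts were 0, 1 and 1. Each time the gene was CXCR3, higher in Y-P. DESeq2 called 0, 1 and 0, the 1 being CXCR3 in Y-P vs. Y-A (all genes 0.756%, 11.6% and 22.3%), and limma on log2(FPKM + 1) called the same gene (all genes 0.0276%, 14.6% and 21.2%). With the replicate block 0, 2 and 2 passed, where all genes gave 0.0965%, 8.84% and 18%. No named gene had stages whose 6 libraries did not overlap, a condition met by 0.303%, 3.56% and 6.03% of all genes. The median log2 fold change of the 6 genes was −0.12, −0.23 and −0.08, beside −0.01, 0.03 and 0.04 for all genes, and the 3 comparisons share their libraries.

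**Figure D2:**
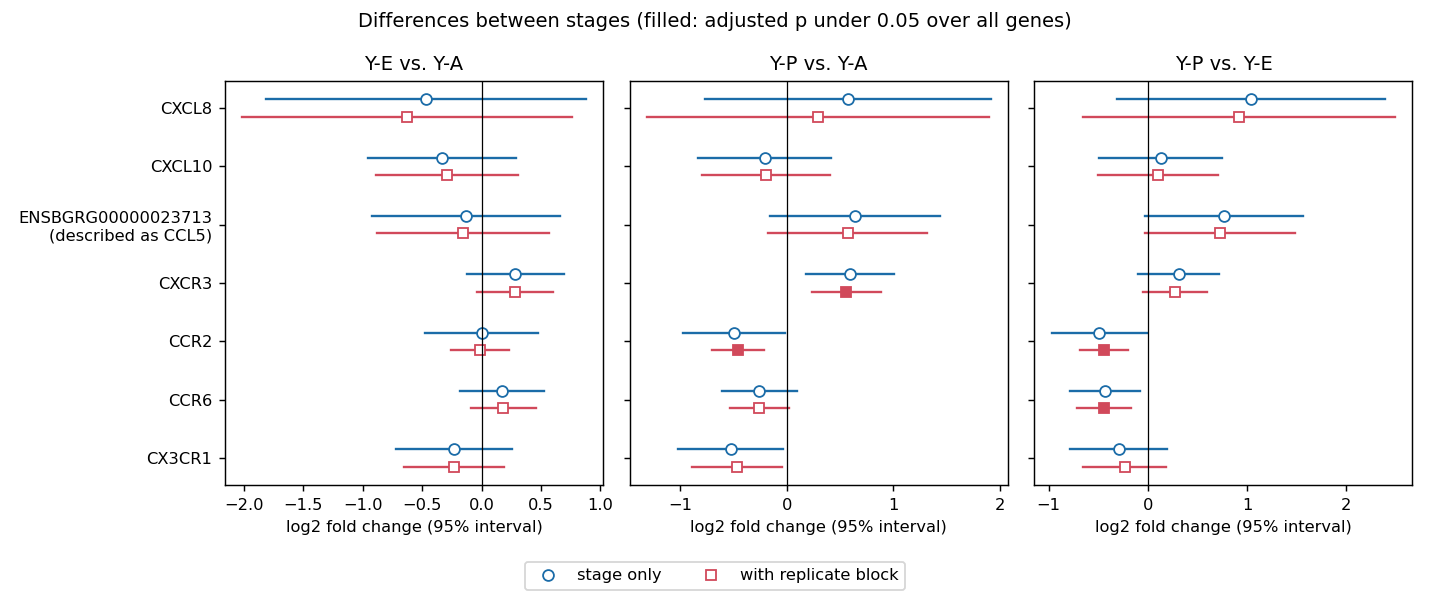
The log2 fold change (horizontal axis) of each gene with its 95% interval is plotted for the 3 comparisons, by stage alone (circles) and with the replicate block (squares), filled where the adjusted p over all genes was under 0.05. By stage alone no symbol is filled; with the block CXCR3 (0.56) and CCR2 (−0.45) are filled in Y-P vs. Y-A, and CCR2 and CCR6 (−0.44 each) in Y-P vs. Y-E.

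The CCR2 level went with the replicate number. Stage accounted for 23.5% of the variance of its log2 CPM, the number for 66.2% and neither for the remaining 10.3%, while over all tested genes the median share of the number was 32.3%. An edgeR test of the number, chosen after these values were seen, gave CCR2 an adjusted p of 0.00849 over the 18 libraries, where 2.73% of all genes passed, and 0.0625 without Y-E replicate 6, where 1.11% passed. With Y-A and Y-E alone CCR2 (adjusted p = 0.0020) and the CCL5-described gene (adjusted p = 0.0285) passed, beside 7.17% of all genes, and CXCL8 (0.0545) and CX3CR1 (0.0689) did not. With Y-A and Y-P, or Y-E and Y-P, none of these genes passed and 0.0214% of all genes did. The number's share was 47.3% for CCR6, 40.6% for CXCR3, 39.5% for CX3CR1, 38.5% for CXCL10 and 16.2% for CXCL8.

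The cells behind these receptors are not separated in whole blood, where fewer cells of a type and less RNA per cell cannot be told apart, so marker genes were read from the same libraries. Of the 9 monocyte markers with a row, 1 was down-regulated in Y-P vs. Y-A and 2 in Y-P vs. Y-E, where 3.61% and 8.68% of all genes were lower, with a median log2 fold change of −0.39 and −0.55. The 1 in Y-P vs. Y-A, the oxidase subunit CYBB (adjusted p = 0.0445), was lost in 12 of the 18 fits that leave out 1 library, and limma on log2(FPKM + 1) called 0 there (0 also at an unadjusted p under 0.05). Their summed level was 2270 to 2789 CPM in Y-A, 1982 to 3416 CPM in Y-E (to 2843 CPM without Y-E replicate 6) and 1500 to 2497 CPM in Y-P. Of the 9 T cell markers with a row, 3 were up-regulated in Y-P vs. Y-A and 4 in Y-P vs. Y-E, where 2.22% and 5.77% of all genes were higher, with medians of 0.38 and 0.42. Among these calls the costimulatory receptor CD27 was lost in 7 of the 18 such fits of Y-P vs. Y-A, and the T cell kinase LCK in 12 of those of Y-P vs. Y-E (adjusted p = 0.0818 without Y-E replicate 6). The T cell marker sum was 1035 to 1252 CPM in Y-A, 975 to 1280 CPM in Y-E and 1146 to 1942 CPM in Y-P. The highest T cell sum was that of Y-P replicate 5, the library with the highest CXCR3. Of 10 B cell markers edgeR called 0 by stage alone in Y-P vs. Y-A and in Y-P vs. Y-E, with medians of 0.36 and 0.52. In Y-P vs. Y-E 2 were higher at an unadjusted p under 0.05, and 2 were called higher by DESeq2 and by limma. Their sums were 832 to 2416, 714 to 2127 and 942 to 2619 CPM in Y-A, Y-E and Y-P. Of the 7 NK and cytotoxic markers 0 were called in Y-P vs. Y-A and 1 was up-regulated in Y-P vs. Y-E. With the replicate block the calls against Y-A and Y-E were 2 and 4 lower for monocyte markers. They were 5 and 4 higher for T cell markers, and 2 and 4 higher for B cell markers. Under the block 5.52% and 10.8% of all genes were lower, and 3.32% and 7.22% were higher. The part of these markers in the receptor results was not tested.

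The receptors were also expressed as a share of those sums. CCR2 amounted to a median of 3.09% of the monocyte marker sum in Y-A (range 2.23% to 4.47%), 2.87% in Y-E (2.15% to 3.93%, median 2.70% without Y-E replicate 6) and 3.02% in Y-P (2.42% to 3.44%). CXCR3 amounted to 1.61% of the T cell marker sum in Y-A (range 1.14% to 1.86%), 1.93% in Y-E (1.43% to 2.22%, median 2.08% without Y-E replicate 6) and 1.58% in Y-P (1.43% to 2.39%). CX3CR1 was at 3.89%, 3.07% and 3.45% of the monocyte sum. Of the T cell sum it was at 9.45% in Y-A (range 4.86% to 11.6%), 7.37% in Y-E (5.06% to 9.97%, median 8.04% without Y-E replicate 6) and 4.94% in Y-P (2.85% to 5.98%). CCR6 was at 2.30% of the T cell sum in Y-A (range 1.70% to 3.29%), 2.62% in Y-E (1.87% to 3.72%) and 1.45% in Y-P (1.02% to 2.29%), and at 1.70%, 2.09% and 1.43% of the B cell sum, so it was lowest in Y-P on both. These ratios are a description and were not tested.

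**Figure D3:**
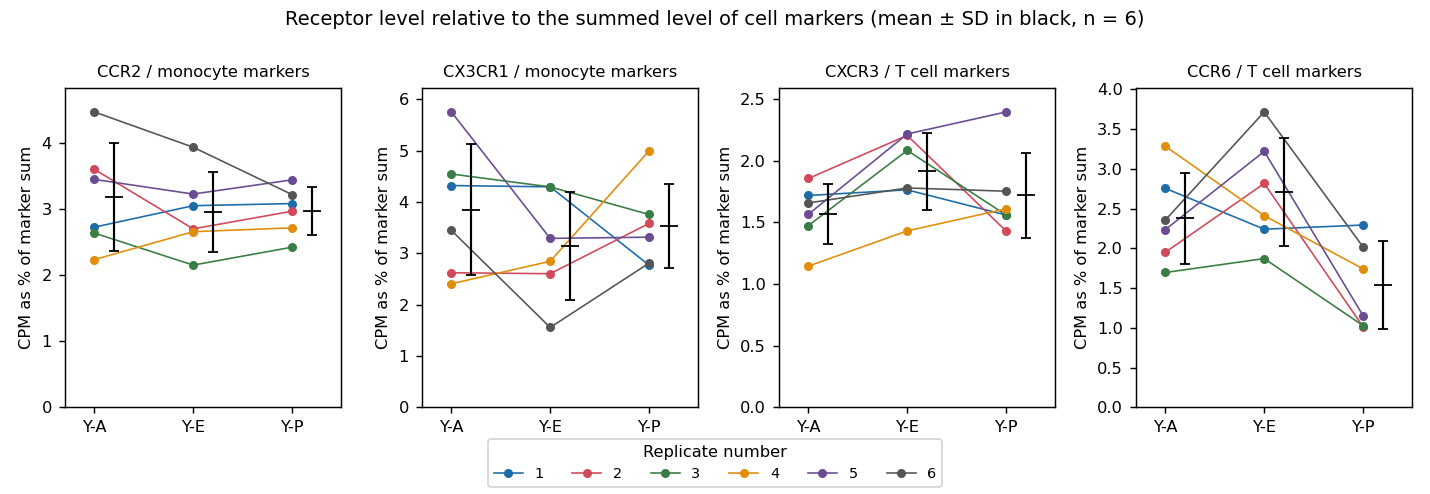
Each panel plots the CPM of a receptor as a percentage of the summed CPM of a marker list (vertical axis, linear from 0) in the 18 libraries by stage, with lines joining equal replicate numbers and black bars for the mean ± SD of 6 libraries. CCR2 against monocyte markers and CXCR3 against T cell markers overlap across stages, with medians of 2.87% to 3.09% and 1.58% to 1.93%, while CCR6 against T cell markers has its lowest median, 1.45%, in Y-P.

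Marker lists of other blood cells were read in the same way. Of 8 neutrophil markers 1 was down-regulated in Y-P vs. Y-A and 6 in Y-P vs. Y-E, beside the same 3.61% and 8.68% of all genes. The 1 in Y-P vs. Y-A, lactoferrin (LTF), was lost in 8 of the 18 fits without 1 library. In Y-E vs. Y-A edgeR called 0 of the 8 and DESeq2 3 higher (all genes 0.756%). The edgeR median of the list was 0.62 in Y-E vs. Y-A, −0.64 in Y-P vs. Y-A and −1.38 in Y-P vs. Y-E. Neutrophil markers had sums of 5414 to 9673, 6760 to 13198 and 3400 to 6279 CPM in Y-A, Y-E and Y-P. CXCL8, which attracts these cells, was at a median of 0.0682%, 0.0334% and 0.0517% of that sum. All 5 red cell precursor markers were down-regulated in Y-P vs. Y-A and 3 in Y-P vs. Y-E. Without Y-E replicate 6, ALAS2 (adjusted p from 0.0249 to 0.341) and SLC4A1 (from 0.0284 to 0.301) were no longer called in Y-P vs. Y-E, which left HBM (adjusted p = 0.00222). Of the 5 tested platelet markers 3 (TUBB1, GP1BA and TREML1) were down-regulated in both comparisons, beside the same 3.61% and 8.68% of all genes. TREML1 was lost in 11 and 7 of the 18 fits without 1 library, and GP1BA had only 0 to 10 counts a library in Y-P. No marker gene of any of the 7 lists was at 0 in all 6 libraries of a stage.

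The tested genes most like each receptor over the 18 libraries were found by Pearson's r of log2 CPM, which is a description over libraries that share stage and depth. CCR2 went with ANXA4 (r = 0.93, Spearman's rho 0.91), IDH1 (r = 0.91) and ARHGAP18 (r = 0.90). CXCR3 went with the T cell surface genes CD6 (r = 0.81, rho 0.74) and CD4 (r = 0.81, rho 0.67) and with YIPF2 (r = 0.80). CX3CR1 went with NFKBID (r = 0.75), CMKLR1, the chemerin receptor (r = 0.75), and SH2D1B, an NK cell adaptor (r = 0.74), and CCR6 with SNX27, N4BP1 and FBXO11 (r = 0.86, 0.86 and 0.85).

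The ligands had likenesses of their own. CXCL8 went with EGR2, an immediate-early transcription factor (r = 0.75, rho 0.64), with CLCN2 (r = 0.73) and with PCDHGA5 (r = 0.72), and CXCL10 with GPR18 (r = 0.79), INPP5B (r = 0.79) and UBE2N (r = 0.77). The CCL5-described gene went with AP4M1 (r = 0.93, rho 0.89), with GZMM, a granzyme of cytotoxic lymphocytes (r = 0.93, rho 0.89), and with RELL2 (r = 0.87). Without Y-E replicate 6 the r of these 21 pairs lay between 0.72 and 0.92.

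Among the other chemokine receptors 15 of 19 had a row and all 15 were tested, and several exceeded the named ones in level. The homing receptors CXCR4 and CCR7 were at a median of 163 and 121 FPKM and the eosinophil receptor CCR3 at 99.9 FPKM, above CX3CR1 at 65.7 FPKM. CCR7, which brings naive and memory T cells to lymph nodes, was at 150 CPM in Y-A (108 to 182), 155 CPM in Y-E (136 to 174) and 208 CPM in Y-P (149 to 273). It was up-regulated in Y-P vs. Y-A (0.47, SE 0.13, edgeR adjusted p = 0.0445) and Y-P vs. Y-E (0.42, SE 0.13, adjusted p = 0.0422), but in 14 and 12 of the 18 fits that leave out 1 library the adjusted p was 0.05 or more, the highest being 0.125 when Y-A replicate 6 was left out and 0.104 when Y-E replicate 1 was.

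CCRL2, XCR1 and ACKR1 were called lower in pregnancy in at least 1 comparison, and the scavenging receptors ACKR2, ACKR3 and ACKR4 were called in none. CCRL2, an atypical receptor that binds chemerin, was at 7.11 to 90.1 CPM in Y-A and 3.43 to 8.85 CPM in Y-P. Its log2 fold change was −2.17 (SE 0.63, edgeR adjusted p = 0.0470), a call also lost in 14 of the 18 such fits. The highest adjusted p, 0.171, came without Y-A replicate 6, which had 16.7% of its counts on hemoglobin genes. XCR1, the receptor of cross-presenting dendritic cells, was at 2.51 to 3.83 CPM in Y-E and 0.812 to 2.16 CPM in Y-P without overlap (−1.13, SE 0.28, adjusted p = 0.0128), and was lost in none. ACKR1, the Duffy antigen receptor of red cells, had 10 to 150 counts a library in Y-A, 0 to 120 in Y-E and 0 to 3 in Y-P. The Y-P counts are at or under the detection floor of 3 counts. By edgeR ACKR1 was lower in Y-P than in Y-A (adjusted p = 0.00777) and in Y-E (adjusted p = 0.0125). Without Y-E replicate 6, which had 8.36% of its counts on hemoglobin genes, the latter was 0.0429. The part of these libraries' hemoglobin content in the CCRL2 and ACKR1 calls was not tested. In all, 1 of the 15 rose and 2 fell in each comparison with Y-P (all genes: 2.22% higher and 3.61% lower against Y-A, 5.77% higher and 8.68% lower against Y-E), and edgeR called 0 in Y-E vs. Y-A (1 higher at an unadjusted p under 0.05, and 0 by DESeq2 and by limma). The replicate block added CXCR5, the follicle-homing receptor of B cells, in both comparisons (0.40, adjusted p = 0.0489, and 0.47, adjusted p = 0.0161) and CCR9, a gut-homing receptor, in Y-P vs. Y-E (0.73, adjusted p = 0.0351). Without a block DESeq2 called 1 higher and 2 lower against Y-A, and 3 higher and 2 lower against Y-E (all genes, either direction, 11.6% and 22.3%). Limma on log2(FPKM + 1) called 3 higher and 1 lower in each (all genes 14.6% and 21.2%).

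Of 34 other chemokine ligands 13 had a row and 4 were tested, and the 9 others reached at most 31 counts in any library. CCL16 was the only tested one above 1 FPKM at the median (16.4 FPKM), and it was down-regulated in Y-P vs. Y-E (−1.26, SE 0.36, edgeR adjusted p = 0.0257), from 19.6 to 76.5 CPM in Y-E to 10.4 to 29.2 CPM in Y-P. The call was lost in 3 of the 18 fits that leave out 1 library, with the highest adjusted p, 0.0669, without Y-E replicate 3. The CCL16 value was 0.80 in Y-E vs. Y-A (SE 0.36, edgeR adjusted p = 0.753) and −0.46 in Y-P vs. Y-A (SE 0.36, adjusted p = 0.475), neither of them called. The interferon-induced ligand CXCL9, the stromal ligand CXCL12 and CCL20, the ligand of CCR6, had medians of 0.0564, 0.151 and 0.225 FPKM and were not called.

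**Figure D4:**
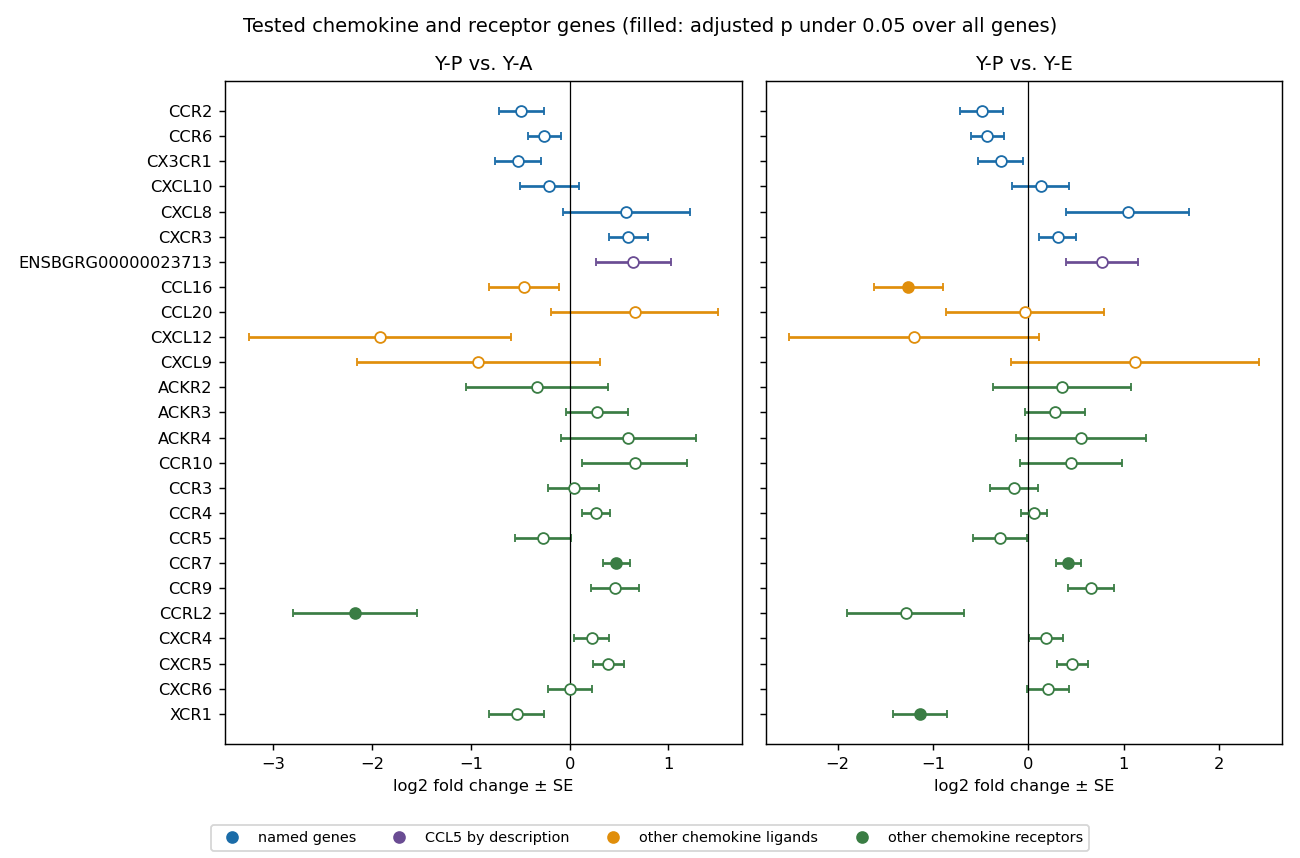
The log2 fold change ± SE (horizontal axis) of each tested chemokine and receptor gene, other than ACKR1, is plotted for Y-P against Y-A and against Y-E, filled where the edgeR adjusted p over all genes was under 0.05. The filled symbols are CCR7 (0.47 and 0.42), CCRL2 (−2.17) in Y-P vs. Y-A, and CCL16 (−1.26) and XCR1 (−1.13) in Y-P vs. Y-E. CXCL12 and CXCL9 have the widest bars.

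Of 25 tested genes that carry the signal inward from chemokine receptors 0 rose and 12 fell in Y-P vs. Y-E, where 8.68% of all genes fell, and 3 fell in Y-P vs. Y-A, where 3.61% did. By DESeq2 the counts were 12 and 4 lower and 0 higher, where it called 22.3% and 11.6% of all genes in either direction. On the log2(FPKM + 1) scale with limma, with its shifted median, 1 was higher and 7 lower in Y-P vs. Y-E. In Y-P vs. Y-A 3 were higher and 1 lower on that scale. For all genes, either direction, limma called 21.2% in Y-P vs. Y-E and 14.6% in Y-P vs. Y-A. In Y-E vs. Y-A edgeR called 0 of the 25, with 8 higher and 0 lower at an unadjusted p under 0.05 (6.20% of all genes, either direction). DESeq2 called 1 higher there. The edgeR median of the list was 0.17 in Y-E vs. Y-A, −0.06 in Y-P vs. Y-A and −0.37 in Y-P vs. Y-E. TIAM1, an exchange factor for RAC, was at 224 to 365 CPM in Y-E and 91.8 to 158 CPM in Y-P (−1.25, SE 0.16, edgeR adjusted p = 0.000264), and it also fell in Y-P vs. Y-A (−0.85, adjusted p = 0.0066). The other leading genes of Y-P vs. Y-E were PREX1, a RAC exchange factor driven by G beta-gamma (−0.82), the PI3-kinase catalytic subunits PIK3CD (−0.85) and PIK3CG (−0.73), the CDC42 exchange factor DOCK8 (−0.55) and the tyrosine kinase PTK2B (−0.58). GRK3, a receptor kinase, and DOCK8 fell in Y-P vs. Y-A (−0.66 and −0.38), calls lost in 3 and 6 of the 18 fits without 1 library. Of the 12 calls in Y-P vs. Y-E, that of RAC1 was lost in 11 such fits and that of GRK3 in 6. TIAM1 and the other leading genes of Y-P vs. Y-E were lost in none. Neutrophil markers also fell in Y-P vs. Y-E, as given above, and their part in the signaling result was not tested.

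Of 8 tested transcription factors known to control these chemokines and receptors, NFKB1, a subunit of NF-kappaB, was at 203 to 269 CPM in Y-A, 207 to 264 CPM in Y-E and 146 to 177 CPM in Y-P without overlap. It fell in Y-P vs. Y-A (−0.57, SE 0.09, edgeR adjusted p = 0.00263) and in Y-P vs. Y-E (−0.63, SE 0.09, adjusted p = 0.000443). In Y-P vs. Y-E, STAT4, which relays interleukin 12, rose (0.60, adjusted p = 0.0257), and IRF1, induced by interferon, fell (−0.61, adjusted p = 0.0393), and these calls were lost in 4 and 10 of the 18 fits without 1 library. With the replicate block STAT4 also rose in Y-P vs. Y-A (0.45, adjusted p = 0.0354).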

How the data were processed

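Whole-blood RNA of 18 yak libraries, 6 per stage, was analysed from 1 table. The authors deposited counts per gene, whole numbers that were not normalized, and FPKM, fragments scaled by exon length and by mapped reads. Per the labels and methods, reads were trimmed with cutadapt 1.9, aligned with HISAT2 2.2.1 to Bos grunniens v101 and quantified with StringTie 2.1.6; the counter behind the counts is not given in the sources used here. Total counts were 30247267 to 48401076 per library, and intervals are 95% intervals over libraries. Libraries were grouped by title and condition label; no library pair had identical counts.

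Counts were fitted in R 4.3.3 with edgeR 4.0.16: filterByExpr, TMM scaling, a quasi-likelihood fit over the 3 stages, two-sided tests of the 3 comparisons, and Benjamini-Hochberg adjustment with a threshold of 0.05. The study's further threshold, an absolute log2 fold change of 1, was not required. Alternatives used the replicate number as a block, DESeq2 1.42.0, limma 3.58.1 on log2(FPKM + 1) and log2(FPKM + 0.1), other scalings and filters, and each library left out. The edgeR step was tested on simulated data. The study followed 6 cows, but the sources used here do not state that a number marks a cow, so the number entered as a block in alternatives only. Deviations of same-numbered libraries from the stage means correlated at 0.11 to 0.65 between Y-A and Y-E, at −0.07 to 0.48 between Y-A and Y-P and at −0.08 to 0.49 between Y-E and Y-P, with 6, 4 and 4 of 6 pairs over 0.1.

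All named genes are described. Of related lists, genes with an adjusted p under 0.05 are named, at most 6 per list and comparison, with the 3 genes most like each named gene. RAC1 is named beyond these for the instability of its call. The genes and lists were chosen with earlier results of these data known. The reference table at hand is of another assembly, so it was not used for coordinates.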

Additional observations from a re-analysis of the deposited data

Results flagged for a closer look

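CXCR3 in Y-P had 1 library far from the others, Y-P replicate 5 at 46.5 CPM, with the next at 25.2 CPM. The CCL5-described gene ENSBGRG00000023713 had another, Y-P replicate 2 at 104 CPM, with the next at 47.1 CPM. In each the gap to the nearest library exceeded the limit of Dixon's test for 6 samples. These were 2 of 21 groups (7 genes in 3 stages) examined, and chance alone flags about 1 in 20 groups.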

How the results depend on the processing

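No named gene passed in Y-E vs. Y-A under any setting. In Y-P vs. Y-A, where the main count was 0, the replicate block gave 2 (CCR2 and CXCR3), library sizes without TMM 1, DESeq2 1, and limma with either pseudocount 1, each of these being CXCR3. Leaving out 1 library gave 0 to 1, the 1 again being CXCR3, without Y-P replicate 1. In Y-P vs. Y-E the block gave 2 (CCR2 and CCR6) and leaving out 1 library 0; the block changed no other call of a named gene. The block without Y-E replicate 6, added after seeing the data, gave 2 and 1, and the block without Y-P replicate 5, added likewise, gave 0 and 1. The other chemokine ligands and receptors passing in Y-P vs. Y-A numbered 3, but 1 with no filter on low counts, 1 with only the stages compared in the fit, and 1 to 3 without 1 library; in Y-P vs. Y-E they numbered 4, and 2 to 6 without 1 library. Directions that turned belonged to differences that did not pass in any setting. CCR2 in Y-E vs. Y-A was 0.00, −0.012 with the block, −0.061 and −0.012 with the block and without Y-E replicate 6 or Y-P replicate 5, and −0.20 to 0.15 without 1 library. CXCL10 in Y-P vs. Y-E (0.13) was −0.17 with the block and without Y-P replicate 5, and −0.12 to 0.24 without 1 library. CXCL8 in Y-P vs. Y-A (0.57) was −0.18 to 0.81, and the CCL5-described gene in Y-E vs. Y-A (−0.13) was −0.31 to 0.047, without 1 library. The causes were not tested. Scaling by library size alone moved the median of all genes to 0.19 and 0.18 in the comparisons with Y-P, and limma to 0.14 to 0.22, so CXCR3 was at 0.74 without TMM. Counts over all genes ranged from 3 to 67, 386 to 2116 and 1372 to 3070 in the 3 comparisons.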
